A study of Mus musculus with 6 samples.

Results

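The genes described here are 9 genes of type 3 immunity: the cytokine genes Il17a, Il17f and Il22, the gene of the soluble IL-22 decoy receptor Il22ra2, the genes of both IL-23 chains (Il23a and Il12b), the genes of both IL-23 receptor chains (Il12rb1 and Il23r), and Rora, a transcription factor gene of the lineage. They were chosen by symbol, and each matched a single Ensembl gene ID among the 55401 in the deposited tables. RNA of cells isolated from the lamina propria of the colon, the layer under the gut epithelium where lymphocytes and myeloid cells reside, was sequenced in bulk in 6 libraries. All mice were male, 5 to 6 weeks old and Apc Min/+, heterozygous for a truncated form of Apc, a suppressor of Wnt signalling, so the comparison holds no mouse with intact Apc. The 3 libraries of the vehicle group came from mice gavaged with 2% Tween 80, and the 3 libraries of the atorvastatin group from mice gavaged with atorvastatin, an inhibitor of cholesterol synthesis, at 20 mg/kg. Gavage was on alternate days in both groups. The labels do not say whether each library is a separate mouse or a pool, so the p-values below rest on a spread between libraries that could be partly or wholly technical.

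Type 3 lymphocytes, which comprise Th17 cells, type 3 innate lymphoid cells and some gamma delta T cells, make IL-17A, IL-17F and IL-22 at mucosal surfaces. Dendritic cells and macrophages induce these cytokines by secreting IL-23, a dimer of a p19 chain (Il23a) and the p40 chain (Il12b) that IL-12 also uses, and lymphocytes sense it through a receptor of Il23r and Il12rb1. IL-22 acts on epithelial cells, where it promotes antimicrobial defence and repair, and the decoy receptor encoded by Il22ra2 binds it without signalling. RORalpha, the nuclear receptor encoded by Rora, supports the type 3 programme and binds DNA at an element with the core AGGTCA.

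Windows of the 250 bases before the RefSeq start (build GRCm38.p6) were present for 6 of the 9 genes, and 4 of them are shown because 3 hold this core and the other belongs to the most abundant cytokine of the set. Capitals mark AGGTCA or its reverse complement, searched on both strands, and each sequence runs 5′ to 3′ on the gene's strand.
Il17a (chr1:20730655-20730904, plus strand): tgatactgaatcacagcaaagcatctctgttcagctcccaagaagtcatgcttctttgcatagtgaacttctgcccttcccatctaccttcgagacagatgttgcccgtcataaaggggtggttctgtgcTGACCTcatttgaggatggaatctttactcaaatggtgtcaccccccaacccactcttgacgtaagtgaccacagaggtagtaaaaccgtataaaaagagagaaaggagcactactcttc
Il17f (chr1:20784271-20784520, minus strand): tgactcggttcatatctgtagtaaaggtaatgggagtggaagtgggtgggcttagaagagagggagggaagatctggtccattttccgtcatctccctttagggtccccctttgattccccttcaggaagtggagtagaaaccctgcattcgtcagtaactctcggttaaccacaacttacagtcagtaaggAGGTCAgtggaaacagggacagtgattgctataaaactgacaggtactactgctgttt
Il23r (chr6:67491856-67492105, minus strand): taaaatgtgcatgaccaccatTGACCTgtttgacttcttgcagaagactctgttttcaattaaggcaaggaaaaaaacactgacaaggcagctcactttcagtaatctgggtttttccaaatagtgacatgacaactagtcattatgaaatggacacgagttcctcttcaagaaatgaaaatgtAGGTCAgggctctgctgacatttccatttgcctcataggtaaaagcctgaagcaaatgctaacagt
Il22 (chr10:118204714-118204963, plus strand): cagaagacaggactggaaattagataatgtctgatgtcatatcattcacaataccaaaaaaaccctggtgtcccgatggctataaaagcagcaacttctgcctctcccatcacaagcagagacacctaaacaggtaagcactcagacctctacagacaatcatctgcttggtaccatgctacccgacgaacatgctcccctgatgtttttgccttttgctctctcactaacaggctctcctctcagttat
The core began 120 bases before the start of Il17a, 58 before that of Il17f, and 229 and 66 before that of Il23r. It was absent from the windows of Il22, Il12b and Rora. Of 32851 windows of the same length over all genes in the table, 14.0% held it. RefSeq starts differ from the gene bounds in the deposited files, given below, for Il22 and Il17f: the Il22 window runs past the deposited start, and the Il17f window lies wholly inside the deposited gene. The STAT motif TTCNNNGAA, searched in the same way, was in none of the 6 windows and in 7.02% of all. A match is a description of the letters and was not tested as a binding site, and other nuclear receptors share this core.

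The deposited FPKM values are scaled to gene length and library size, so levels can be compared between genes. The annotation behind the lengths is not given, so the order of genes at similar levels is approximate. Over all 6 libraries the order was Il22 (45.9 ± 22.8 FPKM, SD, n = 6), Rora (10.5 ± 0.849), Il12rb1 (2.80 ± 0.356), Il17f (1.88 ± 0.495), Il23r (0.975 ± 0.156), Il12b (0.897 ± 0.317), Il17a (0.753 ± 0.225), Il23a (0.690 ± 0.197) and Il22ra2 (0.657 ± 0.342). Il22 exceeded Rora, and Rora exceeded Il12rb1, in 6 of 6 libraries with no overlap of their ranges. Il12rb1 was above Il17f in 5 of 6 libraries and Il17f above Il23r in 6 of 6, with ranges that overlapped in both cases. Among the 5 lowest genes, neighbours in this order did not differ beyond their spread: each was above the next in 3 or 4 of 6 libraries. Il22 thus lay at the 96.8th percentile of the 32406 genes detected in any library, whereas Il17a lay at the 55.5th. Only Il22, Rora, Il12rb1 and Il17f reached 1 FPKM in at least 3 libraries, the filter for the test over all genes. The other 5 were above 0 in every library but under the filter.

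**Figure D1:**
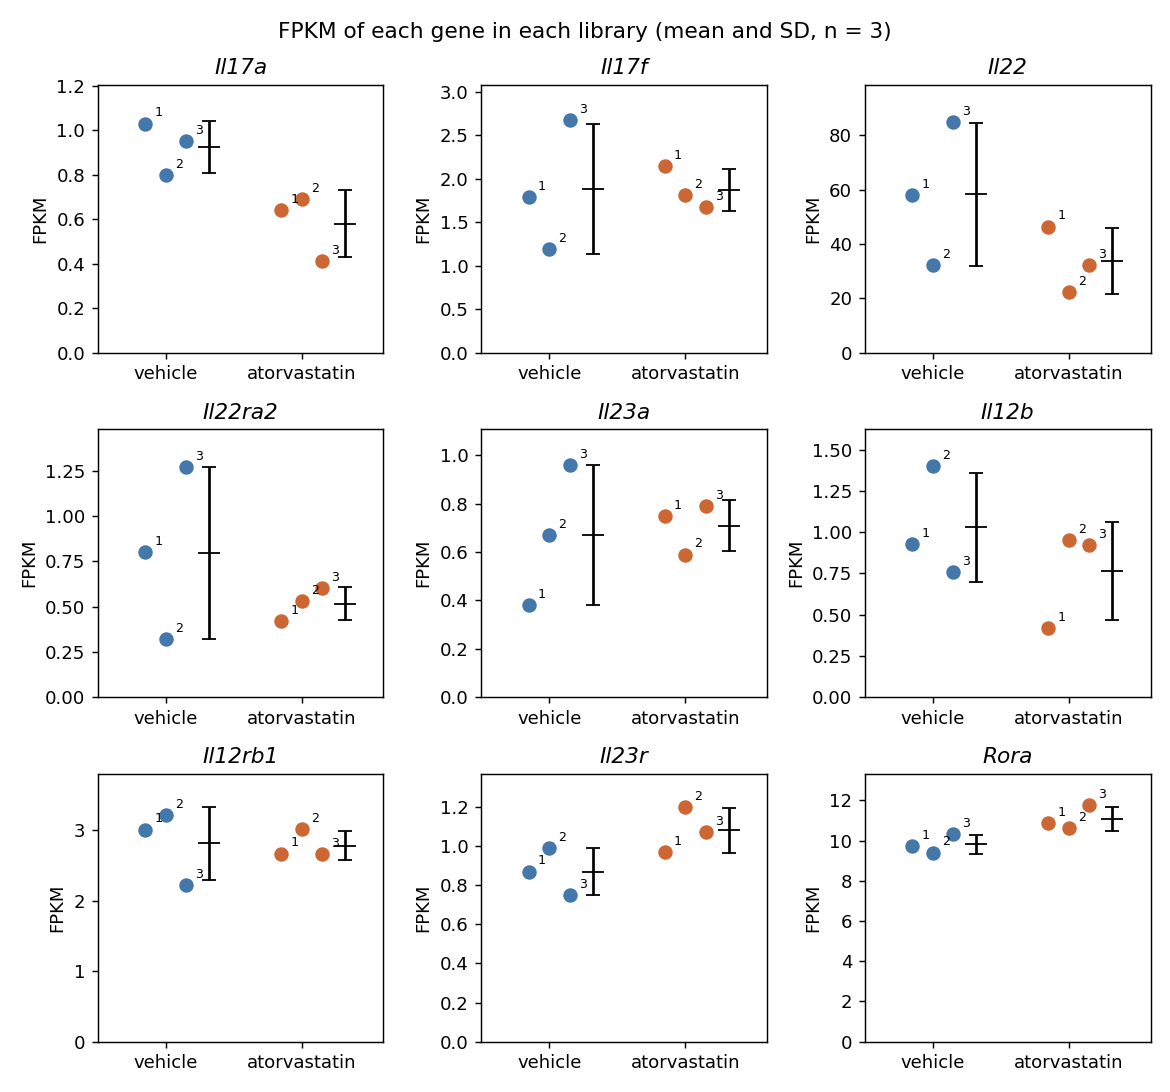
Each panel plots the FPKM of a gene (vertical axis from 0) in the 3 vehicle and the 3 atorvastatin libraries, numbered by replicate, with the mean and SD of each group beside the points. The groups do not overlap for Il17a, which is lower with atorvastatin, and Rora, which is higher, and overlap in the other 7 panels.

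The only contrast in the design sets the atorvastatin libraries against the vehicle libraries. With atorvastatin Il22 and Il17a had lower mean levels and Rora a slightly higher one, while Il17f and Il12rb1 had nearly equal means in the groups. None of the 9 genes passed the test, which was limma on log2(FPKM + 1) at a false discovery rate of 0.05. Over all genes it called 0 of 13590 (0%), with 974 (7.17%) at an unadjusted p under 0.05. The groups did not overlap for 2 of the 9 genes. Among all genes past the filter the groups did not overlap in 14.4%, and among the 6719 genes under the filter with a value above 0 in all libraries in 10.6%. The bulk values cannot tell apart fewer cells of a type and less RNA per cell.

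Some values of the libraries moved with the groups. Summed FPKM of 8 genes induced by tissue dissociation ranged from 5132 to 5255 with vehicle and from 5758 to 8012 with atorvastatin, higher in mean for 8 of 8. For 4 general leukocyte markers the sum was 303 to 357 and 241 to 280, lower in mean for 4 of 4. For 7 B cell markers it was 342 to 458 and 275 to 297, again lower in mean for each. For 6 neutrophil markers the ranges of the sum overlapped, 8.82 to 16.3 and 6.12 to 10.1, though the mean was lower for 6 of 6. Ly6g was at 0 in 1 or more libraries. Their part in the results for the 9 genes was not tested. The leukocyte markers were all above 0 in every library, which cannot by itself check the lamina propria label. RNA of other cells was present. Summed FPKM of 7 epithelial markers was 23.7 to 36.4 and 15.3 to 37.7 (Cdx2 at 0 in 1 or more libraries). That of 5 smooth muscle markers was 461 to 838 and 591 to 793, higher in mean with atorvastatin for 5 of 5. For 5 fibroblast markers the sum was 669.4 to 858.7 and 640.5 to 846.9, higher in mean with atorvastatin for 3 of 5. Vehicle library 3 stood somewhat apart, with a mean Pearson's r of 0.944 to the others across genes against 0.957 to 0.961 for the rest. Atorvastatin library 2 had 47.9% of its summed FPKM in immunoglobulin genes, against 27.9 to 38.4% in the others. Sequencing depth is unknown.

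Among the cytokines, Il22 (ENSMUSG00000074695, mm10 chromosome 10, 118204942 to 118210047, plus strand), whose product acts on the epithelium, had 57.93, 32.07 and 84.79 FPKM in vehicle libraries 1 to 3 and 46.37, 22.39 and 32.12 FPKM in atorvastatin libraries 1 to 3. Vehicle libraries 1 and 3 were above every atorvastatin library, but vehicle library 2 lay beside atorvastatin library 3, so the groups overlapped. The mean was 58.3 ± 26.4 FPKM with vehicle and 33.6 ± 12.1 with atorvastatin (SD, n = 3), a ratio of 0.577. On the log2(FPKM + 1) scale the difference was -0.73 (SE 0.39, 95% interval -1.67 to 0.21, limma adjusted p = 0.699). The value depended on single libraries: it was -1.10 without vehicle library 2, -0.41 without vehicle library 3 and -0.48 without atorvastatin library 2.

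Il17a (ENSMUSG00000025929, chromosome 1, 20730905 to 20734496, plus strand) encodes the founding IL-17 cytokine. Its levels were 1.03, 0.80 and 0.95 FPKM with vehicle and 0.64, 0.69 and 0.41 with atorvastatin. No atorvastatin library reached the lowest vehicle value (2-sided exact permutation p = 0.1, the minimum for groups of 3). Groups lay apart in this direction in 3.96% of genes under the filter and 8.85% of genes past it. The ratio of means was 0.626, and the log2 difference was -0.29 (SE 0.12, 95% interval -0.59 to 0.01) with limma adjusted p = 0.83 in the fit without a filter. It was -0.61 with a pseudocount of 0.1, as the pseudocount of 1 weighs heavily at such low levels. It stayed negative whichever library was left out, between -0.34 and -0.21.

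Il17f (ENSMUSG00000041872, chromosome 1, 20777146 to 20790585, minus strand), the neighbour and dimer partner of Il17a, had 1.79, 1.19 and 2.67 FPKM with vehicle and 2.14, 1.81 and 1.67 with atorvastatin. The atorvastatin values lay within the vehicle range. The means were 1.88 ± 0.744 and 1.87 ± 0.241 FPKM (SD, n = 3), and the log2 difference, opposite in sign to that of the FPKM means, was 0.02 (95% interval -0.45 to 0.50, limma adjusted p = 0.983). It was -0.16 without vehicle library 2 and 0.21 without vehicle library 3. Set against each other within a library, Il17f exceeded Il17a in every library, 1.74, 1.49 and 2.81 times with vehicle and 3.34, 2.62 and 4.07 times with atorvastatin. The 2 lowest ratios were both from vehicle libraries, and vehicle library 3 lay among the atorvastatin libraries. The log2 ratio, with 1 added to each FPKM, was higher with atorvastatin by 0.31 (exact permutation p = 0.2), by 0.18 without vehicle library 2, by 0.49 without vehicle library 3 and by 0.67 with a pseudocount of 0.1.

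The decoy receptor gene Il22ra2 (ENSMUSG00000039760, chromosome 10, 19621998 to 19634681, plus strand), known from dendritic cells of the gut, had 0.80, 0.32 and 1.27 FPKM with vehicle and 0.42, 0.53 and 0.60 with atorvastatin. Vehicle libraries held both the lowest and the highest value. The log2 difference was -0.21 (95% interval -0.71 to 0.29, limma adjusted p = 0.83 in the fit without a filter), -0.03 without vehicle library 3 and -0.42 without vehicle library 2. Within a library, the Il22 level was 42.3 to 110 times that of Il22ra2. That ratio was 72.4, 100 and 66.8 with vehicle and 110, 42.3 and 53.5 with atorvastatin, so both extremes lay in the atorvastatin group. The log2 ratio, with 1 added to each FPKM, differed by -0.52 (exact permutation p = 0.3), by -0.82 without atorvastatin library 1 and by -0.26 without atorvastatin library 2. The signalling receptor chain for IL-22 on epithelial cells, Il22ra1, named after its values were seen, was listed at 0 in all libraries except atorvastatin library 2, where it had 0.02 FPKM.

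Of the IL-23 chains, Il23a (ENSMUSG00000025383, chromosome 10, 128296139 to 128298752, minus strand) had 0.38, 0.67 and 0.96 FPKM with vehicle and 0.75, 0.59 and 0.79 with atorvastatin. The atorvastatin values again lay within the vehicle range. Its log2 difference was 0.05 (95% interval -0.33 to 0.43, limma adjusted p = 0.943 in the fit without a filter) and turned to -0.08 without vehicle library 1. Il12b (ENSMUSG00000004296, chromosome 11, 44400063 to 44414033, plus strand) had 0.93, 1.40 and 0.76 FPKM with vehicle and 0.42, 0.95 and 0.92 with atorvastatin. The lowest value was that of atorvastatin library 1, the highest that of vehicle library 2, and the other 4 libraries lay close together. The log2 difference of Il12b was -0.21 (95% interval -0.67 to 0.26, limma adjusted p = 0.83 in the fit without a filter), -0.06 without atorvastatin library 1 and -0.08 without vehicle library 2. The Il23a to Il12b ratio was above 1 in vehicle library 3 (1.26) and atorvastatin library 1 (1.79) and between 0.409 and 0.859 in the other 4 libraries. Its log2, with 1 added to each FPKM, differed by 0.25 (exact permutation p = 0.5). That difference was 0.086 without atorvastatin library 1, 0.38 without atorvastatin library 2, 0.15, 0.13 and 0.47 without vehicle libraries 1, 2 and 3, and 0.56 with a pseudocount of 0.1.

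Of the IL-23 receptor chains, the shared one was the more abundant. Il12rb1 (ENSMUSG00000000791, chromosome 8, 70808449 to 70821424, plus strand), shared with the IL-12 receptor, had 3.01, 3.21 and 2.22 FPKM with vehicle and 2.67, 3.02 and 2.66 with atorvastatin. Its log2 difference was -0.0032 (95% interval -0.32 to 0.32, limma adjusted p = 0.998), and the sign turned under other scalings. Il23r (ENSMUSG00000049093, chromosome 6, 67422932 to 67491855, minus strand), the chain specific to IL-23, had 0.87, 0.99 and 0.75 FPKM with vehicle and 0.97, 1.20 and 1.07 with atorvastatin. Only vehicle library 2 and atorvastatin library 1 crossed. The log2 difference of Il23r was 0.15 (SE 0.12, 95% interval -0.14 to 0.45, limma adjusted p = 0.83 in the fit without a filter). Within a library the Il12rb1 level was 3.46, 3.24 and 2.96 times that of Il23r with vehicle and 2.75, 2.52 and 2.49 times with atorvastatin. On FPKM as deposited these ratios did not overlap between the groups. With 1 added to each FPKM they did, at a log2 difference of -0.16 (exact permutation p = 0.2), which was -0.29 with a pseudocount of 0.1. How often ratios of other genes lie apart was not computed. Among single genes past the filter the groups did not overlap in 14.4%.

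Rora (ENSMUSG00000032238, chromosome 9, 68653786 to 69388246, plus strand), which encodes RORalpha and is also expressed in type 2 innate lymphoid cells, had 9.73, 9.40 and 10.31 FPKM with vehicle and 10.89, 10.61 and 11.77 with atorvastatin. Every atorvastatin library was above every vehicle library (exact permutation p = 0.1, the smallest possible), a pattern shared in this direction by 5.53% of genes past the filter. The difference was small, with a ratio of means of 1.13 and 0.16 on the log2 scale (SE 0.10, 95% interval -0.08 to 0.40, limma adjusted p = 0.727). It was positive under every scaling, and with equal sums of all genes but immunoglobulin genes it was 0.25. The antisense gene Gm15511 overlaps 82 exonic bases of Rora and had 0 to 0.12 FPKM. Whether reads were counted by strand is not given.

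**Figure D2:**
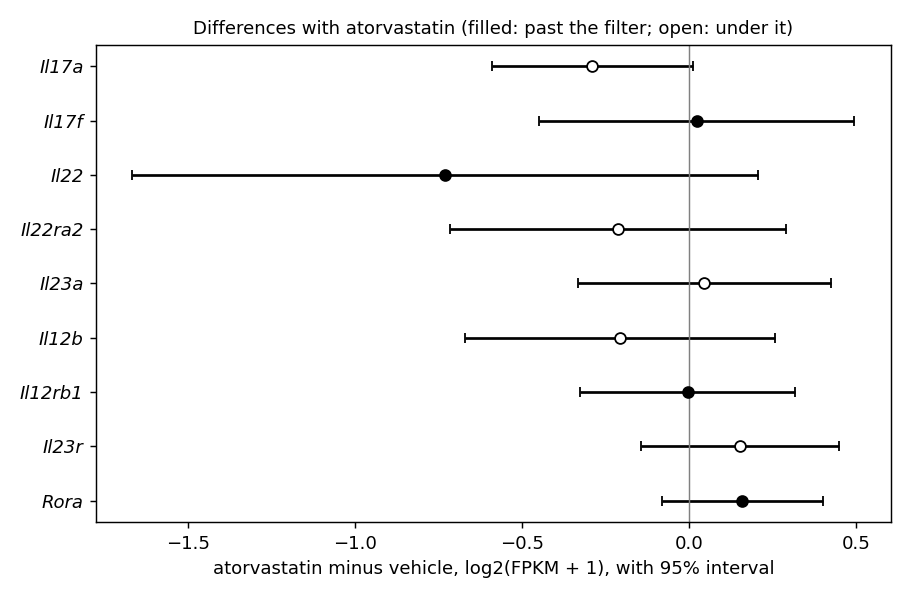
Points are atorvastatin minus vehicle differences of log2(FPKM + 1) with 95% intervals from limma (3 libraries per group), filled for genes past the filter and open for genes tested in the fit without a filter. Every interval includes 0; that of Il22, -1.67 to 0.21, is the widest, and that of Il17a ends at 0.01.

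The intervals limit what the libraries can show. For Il22 the interval reached from -1.67 to 0.21, which spans a clearly lower and a slightly higher level with atorvastatin. For Rora, Il12rb1 and Il17f the intervals lay within 0.5 units of 0 on the log2(FPKM + 1) scale. At the low levels of Il12rb1 and Il17f this scale understates changes in FPKM, so their bounds on the fold change are wider.

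Relations between genes across the 6 libraries were computed on log2(FPKM + 1) and chosen after the values were seen. Il22 and Il23r ran in opposite directions: the libraries with the most Il22, vehicle 3 and vehicle 1, had the least Il23r, and atorvastatin library 2, with the least Il22, had the most. Pearson's r was -0.98 (exact permutation p = 0.00278, Benjamini-Hochberg adjusted p = 0.1 over the 36 pairs) and Spearman's rho -0.94 (exact permutation p = 0.0167, adjusted p = 0.6), and r was -0.89 without vehicle library 3 and atorvastatin library 2, the libraries farthest from the median of Il22. After adjustment none of the 36 pairs had a p under 0.05. Il22 with Il22ra2 had r 0.76 (exact permutation p = 0.0722, adjusted p = 0.412; rho 0.71, exact permutation p = 0.136, adjusted p = 0.61; r 0.61 without those libraries), and Il22 with Il17f r 0.68 (exact permutation p = 0.138, adjusted p = 0.429; rho 0.54, exact permutation p = 0.297, adjusted p = 0.61; r 0.64 without them).

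Among 67 other genes of the pathway, of which Batf and Bcl11b are named here after their values were seen, none had an adjusted p under 0.05 with Il22. Batf, an AP-1 family factor needed for Th17 differentiation, had the same order of libraries as Il22 (rho 1.00, exact permutation p = 0.00278, adjusted p = 0.186; r 0.92, exact permutation p = 0.00972, adjusted p = 0.163; r 0.89 without the farthest libraries). Batf had 41.25, 23.43 and 43.61 FPKM with vehicle and 38.75, 22.53 and 30.38 with atorvastatin. Bcl11b, a T cell factor, ran opposite (r -0.94, exact permutation p = 0.00972, adjusted p = 0.163; rho -0.94, exact permutation p = 0.0167, adjusted p = 0.223; r -0.92 without the farthest libraries). Over all 13572 genes compared, the closest to Il22 were Trmt11 (r 0.994), Nap1l1 (0.989) and Nt5c3 (0.989) over 6 libraries, and 414 genes had an r over 0.9. The closest to Il23a were Atp1b2 (0.996), Gm11836 (0.993) and S100a7a (0.986), with 144 genes over 0.9.

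**Figure D3:**
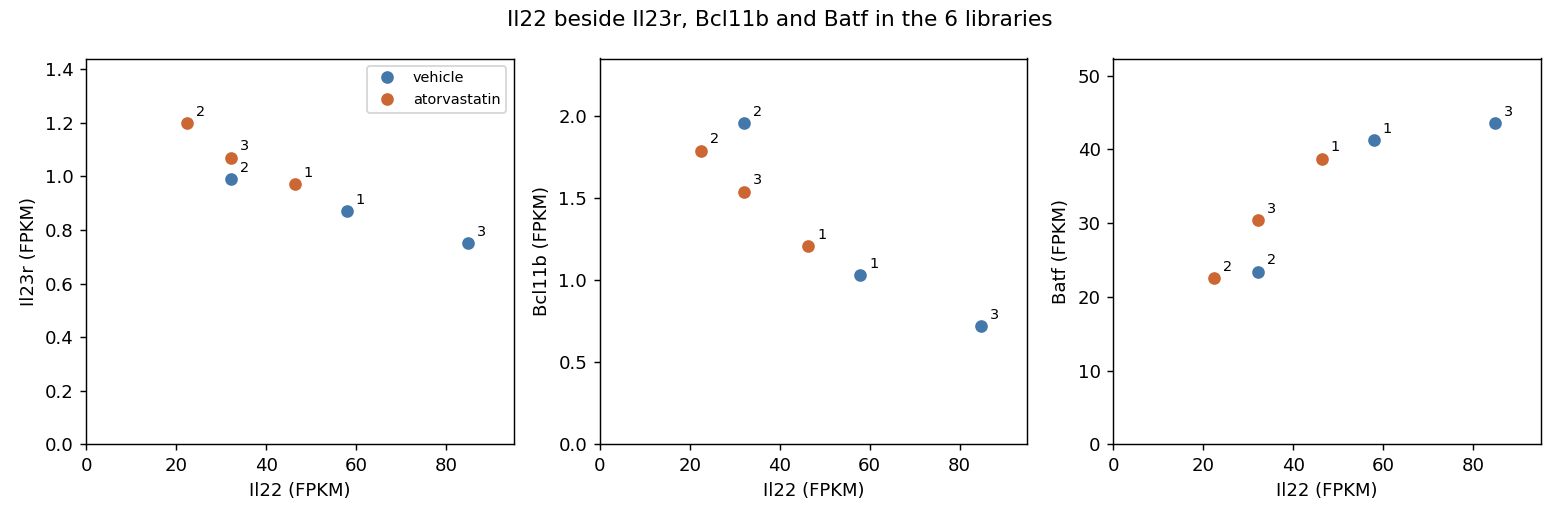
Each point is a library, numbered by replicate, with the FPKM of Il22 on the horizontal axis and that of Il23r, Bcl11b or Batf on the vertical axis. Il23r falls from 1.20 FPKM in atorvastatin library 2 to 0.75 in vehicle library 3 as Il22 goes from 22.39 to 84.79 FPKM, and Batf follows the order of Il22.

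Expressed relative to markers of the cells that could make it, Il22 was 38.1, 16.1 and 62.7% of the summed FPKM of 9 T cell markers with vehicle and 36.4, 14.8 and 24.1% with atorvastatin. Relative to 8 markers of type 3 innate lymphoid cells it was 36.0, 18.9 and 40.3% and 26.6, 13.3 and 19.8%. Both sets of values overlapped between the groups. Il17a was 0.677, 0.402 and 0.702% of the T cell sum with vehicle and 0.502, 0.455 and 0.307% with atorvastatin, so the separation of its FPKM values did not hold against that sum, which was 135 to 199 FPKM and 127 to 152 FPKM. The sum of 6 gamma delta T cell markers, another source of IL-17A, was 17.8 to 23.9 FPKM and 15.3 to 18.0 FPKM. Il12b was 0.503 to 0.684% of the summed FPKM of 9 dendritic cell markers with vehicle and 0.297 to 0.718% with atorvastatin. That sum was 151.1 to 204.8 FPKM and 128.1 to 151.4 FPKM, so its ranges overlapped slightly. The mean was lower with atorvastatin for 9 of 9 markers, though nearly equal for Zbtb46. Most of the sum came from Ccr7, at 149.74, 183.16 and 129.10 FPKM with vehicle and 124.08, 129.81 and 110.66 with atorvastatin. The percentages of Il12b are thus mainly relative to Ccr7.

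Of the 67 other genes of the pathway, in 5 lists, 56 passed the filter and 0 were called in either direction (0% of all genes). At an unadjusted p under 0.05 there were 6 of the 56 in limma, beside 7.17% of all genes tested. The groups did not overlap in 8.93% of the 56 against 14.4% of all genes tested, and the median log2 difference was 0.00 against -0.02 over all genes. The cytokine list held the most negative median, -0.38 over 6 tested genes, 4 of them negative and 2 positive. In limma 3 of the 6 had an unadjusted p under 0.05, and they went in both directions. Csf2 and Lta (log2 difference -0.67) were lower with atorvastatin, and Il17c (0.53) was higher. For Lta and Il17c, named after their values were seen, the limma adjusted p was 0.692. Csf2, which encodes GM-CSF, a product of type 3 lymphocytes that acts on myeloid cells, had 35.77, 32.09 and 38.04 FPKM with vehicle and 21.46, 19.40 and 23.28 with atorvastatin. Its groups were far apart relative to their spread, yet its limma adjusted p was 0.627 (log2 difference -0.70, SE 0.12). Csf2 was named for its abundance and for the smallest p of its list. Groups lay apart in this direction in 8.85% of all genes past the filter. Il10, the other most abundant gene of that list, an anti-inflammatory relative of Il22, had 39.0 ± 9.25 and 38.8 ± 7.59 FPKM (SD, n = 3).

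The other inducers were 10 tested genes with a median of -0.09, 8 of them negative. Il1b, which promotes IL-17 and IL-22 production, had 187.01, 149.98 and 179.19 FPKM with vehicle and 121.68, 144.10 and 121.25 with atorvastatin. Its groups did not overlap, as in 8.85% of all genes past the filter in this direction. The log2 difference of Il1b was -0.41 (SE 0.16, limma adjusted p = 0.692). Il1b was also named for its abundance and for the smallest p of its list. Il6, needed for Th17 differentiation, had 94.55, 41.64 and 107.24 FPKM with vehicle and 81.91, 60.80 and 83.79 with atorvastatin, and vehicle library 2 was the lowest. These inducers were far more abundant than Il23a or Il12b.

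The 13 tested receptor chains had a median of 0.05, 11 of them positive. Il1r1, the signalling receptor for IL-1, was named for the smallest p of its list. It had 16.98, 15.15 and 21.72 FPKM with vehicle and 26.14, 20.47 and 30.87 with atorvastatin. The level was 0.50 higher on the log2 scale (SE 0.19, limma adjusted p = 0.692), with atorvastatin library 2 below vehicle library 3. Tgfbr2 (38.1 ± 3.76 and 38.5 ± 2.52 FPKM, SD, n = 3) and Il21r (34.4 ± 6.08 and 29.7 ± 3.38 FPKM) were the most abundant. The 18 tested transcription factors had a median of 0.03, with 12 positive, and none had an unadjusted p under 0.05. Bhlhe40, which supports GM-CSF production, had 177 ± 39.6 and 221 ± 45.3 FPKM, Nfil3, needed for innate lymphoid cell development, 75.0 ± 10.7 and 84.8 ± 6.24, and Runx1, a T cell factor with the smallest p of the list, 6.88 ± 1.66 and 9.09 ± 1.71 (SD, n = 3).

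The 9 kinases, adaptors and brakes all passed the filter, with a median of 0.02. Stat4, which transmits IL-12 and also IL-23 signals, had 44.94, 48.76 and 36.43 FPKM with vehicle and 31.44, 34.47 and 30.15 with atorvastatin. Its groups did not overlap, a pattern shared in this direction by 8.85% of all genes past the filter. The log2 difference of Stat4 was -0.42 (SE 0.14, limma adjusted p = 0.692). Stat4 was named for the smallest p of its list. Socs3, a brake on STAT3 signalling, had 292 ± 47.3 and 359 ± 75.1 FPKM, and Jak1 85.5 ± 8.28 and 96.7 ± 11.0 FPKM (SD, n = 3).

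**Figure D4:**
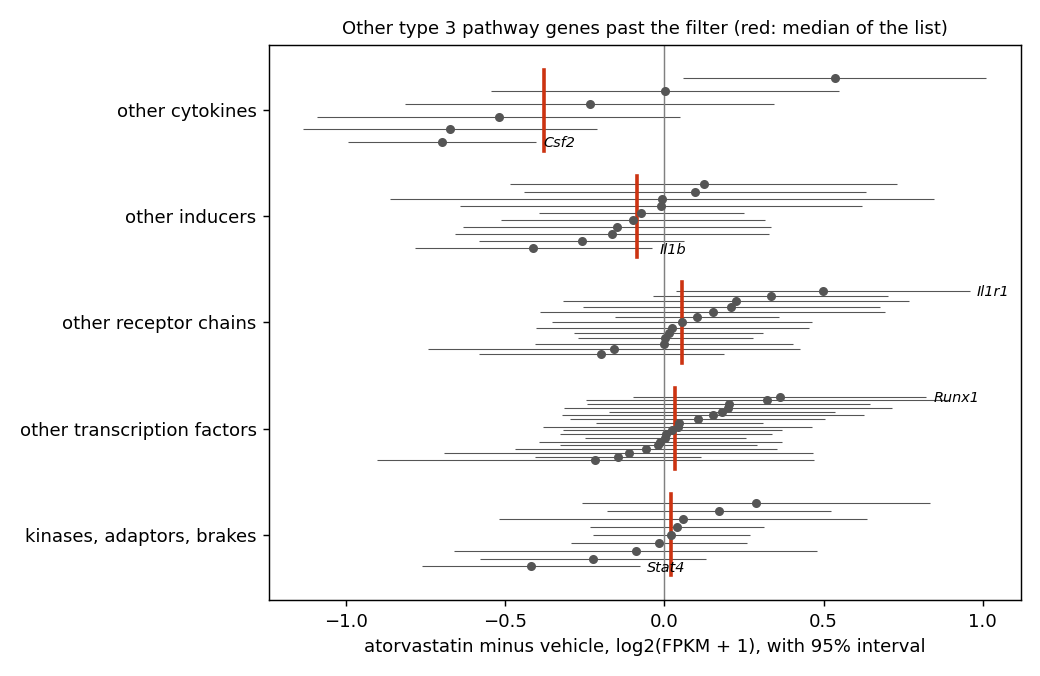
Points are atorvastatin minus vehicle differences of log2(FPKM + 1), with 95% intervals from limma, for the 56 tested genes of the 5 lists, and red bars are the medians of the lists. The named gene of each list has its smallest p, and the medians run from -0.38 for the other cytokines to 0.05 for the other receptor chains.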

How the data were processed

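RNA-seq of total RNA from colon lamina propria cells covered 3 vehicle and 3 atorvastatin libraries. The authors deposited 1 table of FPKM values per library, with 2 decimals. Per the submitters' processing notes FastQC 0.11.2, Bowtie and the build mm10 were used. Not given in the sources used here: quantifier, annotation, strand setting. Summed FPKM ranged from 355787 to 456064, and fragment counts could not be recovered, so depth and its precision are unknown. Gene symbols were taken from release 21 of GENCODE, whose coordinates equal the deposited ones for 51957 of 55401 IDs (260 had no symbol). For the 13590 genes that reached 1 FPKM in 3 or more libraries, limma-trend (limma 3.58.1 in R 4.3.3) was run on log2(FPKM + 1), 2-sided, with Benjamini-Hochberg adjustment over all genes at a false discovery rate of 0.05. This scale understates changes of low genes. Genes under the filter were taken from a fit without it (32406 genes) and an exact permutation test over libraries. Values of some listed genes are not reported here. The fit was checked on simulated data.

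Named were the 9 genes, the 2 most abundant and the smallest p of each of 5 lists, and the 3 genes most like Il22 and Il23a. Of 67 listed pathway genes 67 were matched, and of 86 marker genes 84. The genes and lists were chosen with earlier results of these data known. Alternatives were other pseudocounts, filters and scalings, robust variance, a replicate block, and each library left out in turn.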

Additional observations from a re-analysis of the deposited data

How the results depend on the processing

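No gene of the set was called under any alternative tried. Over all genes 0 were called, except 0 to 3 when single libraries were left out (1 without atorvastatin library 1 and 3 without atorvastatin library 3, none of them a gene of the set or lists); the cause was not tested. Genes at an unadjusted p under 0.05 numbered 974, 453 with equal sums per library, 1761 without a filter, and 475 to 1161 with single libraries left out. The difference of Il12rb1, -0.0032 as reported, was 0.047 with equal sums per library, 0.021 with median-of-ratios scaling and 0.063 with equal sums without immunoglobulin genes. With single libraries left out, Il12rb1 ranged from -0.12 to 0.073, Il17f from -0.16 to 0.21 and Il23a from -0.083 to 0.17. The other 6 genes and the 4 ratios kept their sign under every alternative run. With a pseudocount of 0.1 the differences of low genes were larger, -0.61 for Il17a, -0.42 for Il12b, -0.39 for Il22ra2 and 0.29 for Il23r. The stricter filter left out the 5 low genes. Same-numbered libraries did not pair, with correlations of their deviations from the group means of -0.11, 0.14 and -0.02. With the replicate block the difference of Il22 had an unadjusted p of 0.0298 and a limma adjusted p of 0.728, 0 genes were called, 852 had an unadjusted p under 0.05, and only vehicle library 2 and atorvastatin library 2 correlated best with the same number.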
